A study of Mus musculus with 18 samples.

Results

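The enzymes that make serine and those that carry its one-carbon unit into folate were examined in mouse colon tumor libraries from mice on serine-free diets. The group was set by name as 9 genes, Phgdh, Psat1, Psph, Shmt1, Shmt2, Mthfd1, Mthfd2, Mthfd1l and Aldh1l2, and each name matched 1 of the 54354 gene rows. The rule uses names and no threshold on a measured value. Strand-specific sequencing of poly(A) RNA was deposited as estimated counts per gene. The libraries compared were 5 from the serine-free high fat diet (SF_HFD) and 5 from the serine-free control diet (SF_CD). All 10 are labelled wild type, colon and tumor, and lack of dietary serine is common to both groups, so the effect of serine itself was not measured. The labels give neither strain, sex, age nor time on the diet. They name organoids, cultured three-dimensional clusters of epithelial cells, as the source of the RNA, whereas the series' design text speaks of sorted cells, and which applies was not settled here.

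In mammals, Phgdh, Psat1 and Psph turn the glycolytic intermediate 3-phosphoglycerate into serine. Shmt1 in the cytosol and Shmt2 in mitochondria then cleave serine to glycine and load the freed carbon onto tetrahydrofolate. Mitochondrial Mthfd2 and Mthfd1l oxidise that unit and release it as formate, Aldh1l2 oxidises it to carbon dioxide, and cytosolic Mthfd1 takes formate up again for purine and thymidylate synthesis. The serine synthesis genes are known targets of the transcription factor ATF4, which is activated when amino acids are scarce, and both intestinal tumors and other proliferating tissues use the pathway.

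The upstream sequences of the genes show which known regulatory motifs stand before enzymes that act in 1 pathway. RefSeq (GRCm38.p6) gave promoter windows for 8 of the 9 genes, with 9 windows in all because Psat1 has a pair of start sites. Aldh1l2 was not matched. The 250 bases before the start site were searched on both strands. Shown are Phgdh and Psat1 (its first window), the opening steps of serine synthesis, and Mthfd2 and Shmt2, a mitochondrial pair that differs in CCAAT content. Capitals mark CCAAT, or ATTGG where it lies on the other strand, and in Phgdh also a match to TGACNNNGC, read on the other strand as GCGGAGTCA. The windows are chr3:98339970-98340219 (Phgdh, minus strand), chr19:15925060-15925309 (Psat1, minus strand), chr6:83317605-83317854 (Mthfd2, minus strand) and chr10:127522445-127522694 (Shmt2, minus strand).

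Phgdh: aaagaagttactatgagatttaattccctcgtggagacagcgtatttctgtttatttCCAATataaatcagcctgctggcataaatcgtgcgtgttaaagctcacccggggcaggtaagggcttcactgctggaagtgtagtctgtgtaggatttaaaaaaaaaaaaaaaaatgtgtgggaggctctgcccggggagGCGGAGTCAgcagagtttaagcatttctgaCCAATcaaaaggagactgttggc

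Psat1: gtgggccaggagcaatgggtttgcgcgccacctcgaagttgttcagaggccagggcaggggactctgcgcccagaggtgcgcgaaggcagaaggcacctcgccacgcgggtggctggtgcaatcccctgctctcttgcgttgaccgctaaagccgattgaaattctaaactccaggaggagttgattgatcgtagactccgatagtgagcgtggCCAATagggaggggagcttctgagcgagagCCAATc

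Mthfd2: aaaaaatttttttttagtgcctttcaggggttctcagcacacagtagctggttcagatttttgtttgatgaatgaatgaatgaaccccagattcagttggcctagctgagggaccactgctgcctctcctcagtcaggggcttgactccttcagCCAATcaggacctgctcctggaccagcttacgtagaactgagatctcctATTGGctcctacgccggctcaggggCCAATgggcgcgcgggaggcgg

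Shmt2: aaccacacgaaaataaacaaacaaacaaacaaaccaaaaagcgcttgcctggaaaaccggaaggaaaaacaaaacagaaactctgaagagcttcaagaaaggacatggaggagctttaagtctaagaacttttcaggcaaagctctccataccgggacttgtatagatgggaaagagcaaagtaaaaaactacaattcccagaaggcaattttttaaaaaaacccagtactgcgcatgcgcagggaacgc

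The CCAAT box, a common promoter element bound by NF-Y, was found in 6 of the 8 genes, and 33.8% of 32851 mouse promoter windows of the same length held it. Mthfd2 had 3 copies, Phgdh, Psph and the first Psat1 window had 2 each, and Shmt1 and Mthfd1 had 1 each. Shmt2, Mthfd1l and the second Psat1 window had none. The CCAAT box was added to the search after the sequences had been seen. TGACNNNGC, the core of the antioxidant response element bound by Nfe2l2, was found in the Phgdh window alone and in 10.2% of all windows. Neither TGATGNAA, the composite element of ATF4 and C/EBP proteins (3.45% of all windows), nor the E-box CACGTG, bound by Myc (6.02%), was found in the 9 windows. None of the motifs searched overlaps another in the sequences shown.

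Total counts ranged from 727610 to 12146933 in SF_HFD and from 499774 to 12841275 in SF_CD. The 3 libraries under 1000000 counts were SF_HFD library 5, SF_CD library 1 and SF_CD library 5, so 2 of them fall in the control diet. Ribosomal RNA took 22.0% of the counts in SF_CD library 1 and 14.5% in SF_CD library 5, against 2.08% to 7.19% in the other 8, and the nuclear transcript Malat1 took 12.1% in SF_CD library 1. Epithelial content was checked on 11 epithelial markers, of which 10 were detected in all 10 libraries. Their summed level was 4592 to 7126 CPM (counts scaled to a library total of 1000000 after normalization) in SF_HFD and 2228 to 4992 CPM in SF_CD libraries. Marker sums of smooth muscle were 170 to 258 CPM under SF_HFD and 3.50 to 24.8 CPM under SF_CD, and those of fibroblasts were 79.4 to 152 CPM under SF_HFD and 13.5 to 93.5 CPM under SF_CD. Goblet cell markers summed to 65.7 to 338 CPM under SF_HFD and 78.2 to 282 CPM under SF_CD, mostly from Agr2 (means of 152 and 94.6 CPM). By edgeR, 2 of 7 goblet genes were called lower, Muc2 with 1 count in SF_HFD and 94 in SF_CD and Zg16 with 1 and 309 (adjusted p = 0.00170 and 0.000156), and the goblet genes had a median of -1.34 in log2 fold change. Of the markers tested, 3 of 6 for smooth muscle and 2 of 7 for fibroblasts were called higher, and 1 of 3 for leukocytes lower. Of the epithelial markers, 0 of 10 were called, with 9 positive and a median log2 fold change of 0.71. Over all 11780 genes tested, edgeR called 0.323% in either direction. The leukocyte sum was 7.37 to 41.7 CPM in SF_HFD libraries and 33.8 to 117 CPM in SF_CD libraries, with Cd3e at 0 throughout. The endothelial sum was 1.26 to 4.30 CPM in SF_HFD libraries and 3.86 to 33.8 CPM in SF_CD libraries, and the part of these cell types in the results below was not tested. In bulk samples, fewer cells of a type and less RNA per cell cannot be told apart.

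None of the 9 enzymes passed the test for a change with the high fat diet on the serine-free background. Under edgeR's quasi-likelihood test of 11780 genes with Benjamini-Hochberg adjustment, 0 of 9 passed an adjusted p of 0.05, where 0.323% of all genes did. At an unadjusted p under 0.05 the count was also 0 of 9, against 11.6% of all genes, and DESeq2 called 0 of 9, where it called 2.53% of all genes, and limma-voom called 0 of 9, where it called 1.47% of all genes. The groups overlapped for all 9 genes, and 3.65% of all genes had groups that did not overlap. The median log2 fold change of the 9, SF_HFD over SF_CD, was 0.02, as it was over all genes, with a range of -0.58 to 0.69. The 95% intervals given below show the sizes of change that the data allow for each gene.

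**Figure D1:**
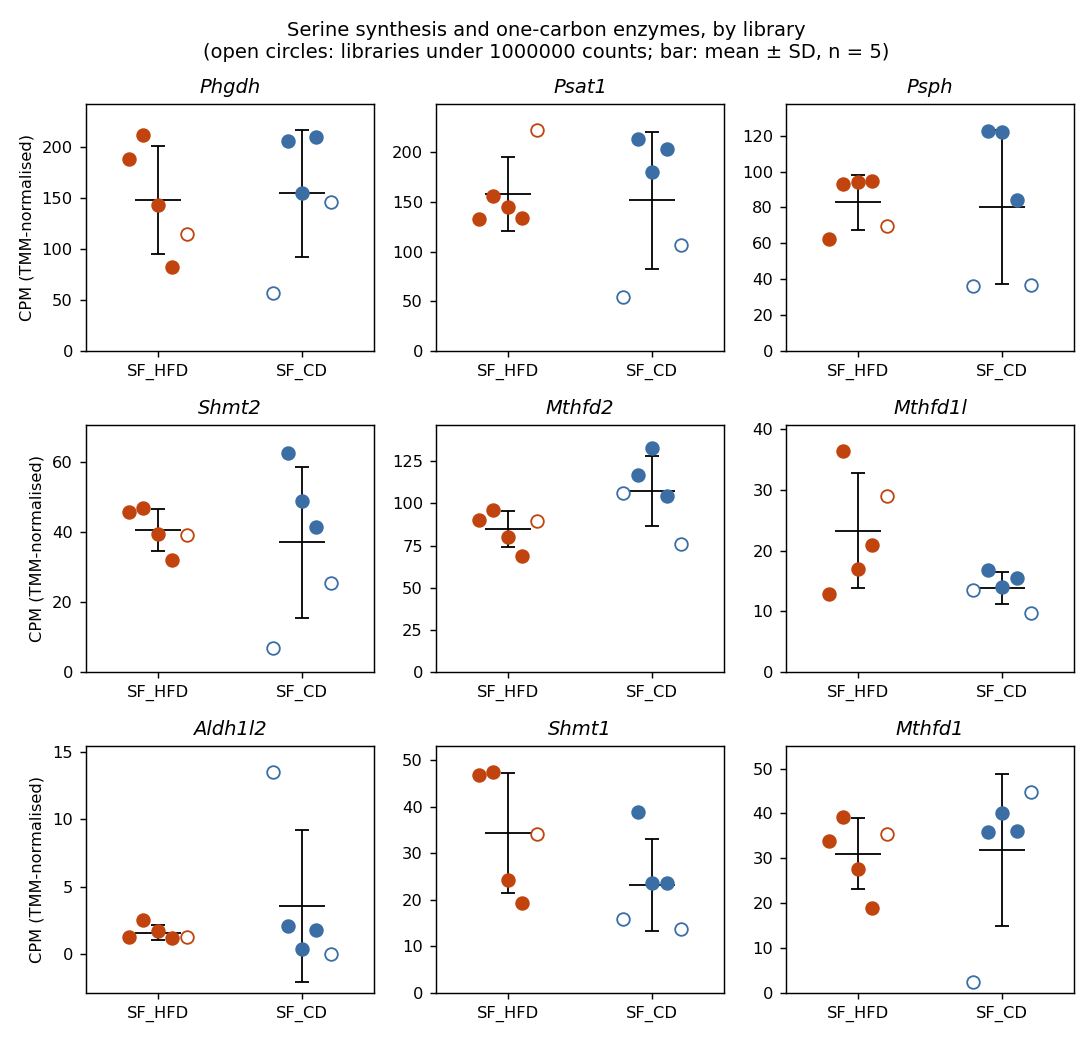
TMM-normalised CPM of each enzyme (vertical axes) in each of the 5 SF_HFD and 5 SF_CD libraries, with the mean ± SD as bars and open circles for the 3 libraries under 1000000 counts. The groups overlap in every panel, and Mthfd1 at 2.25 CPM and Aldh1l2 at 13.5 CPM in SF_CD library 1 stand away from the rest.

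Over all 10 libraries, the 3 serine synthesis enzymes had nearly the same mean in both groups. In the 7 libraries over 1000000 counts, all 3 means were lower in SF_HFD than in SF_CD. There Phgdh was at 156 ± 56.8 against 190 ± 30.5 CPM, Psat1 at 142 ± 10.8 against 199 ± 16.9, and Psph at 86.1 ± 15.7 against 110 ± 21.9 (SD). None of the 3 had an edgeR adjusted p under 0.05 in those libraries. Phgdh (mm10 chr3:98313170-98339990, minus strand), the dehydrogenase that opens the pathway, was at 187, 211, 142, 82.2 and 115 CPM in SF_HFD libraries 1 to 5 and at 56.4, 205, 155, 209 and 146 CPM in SF_CD libraries 1 to 5. Its lowest library was SF_CD 1, and both groups reached above 200 CPM. The means were 148 ± 52.5 CPM in SF_HFD libraries and 154 ± 61.8 CPM in SF_CD libraries (SD, 5 libraries each), with a log2 fold change of -0.07 ± 0.38 (SE; 95% interval -0.88 to 0.73; by edgeR, adjusted p = 0.963). Phgdh shares 55.8% of its 31-base transcript words with 23 other annotated genes, 22 of them processed pseudogenes. Those rows held 28 counts over the 10 libraries against 11531 for Phgdh, and how the authors' counting divided shared reads was not tested.

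Psat1 (chr19:15904678-15947337, minus strand), the aminotransferase of the second step, was at 133, 156, 145, 134 and 222 CPM in SF_HFD libraries and at 54.1, 213, 180, 203 and 107 CPM in SF_CD libraries. The highest SF_HFD value and the 2 lowest SF_CD values came from the 3 shallow libraries. Its log2 fold change was 0.04 ± 0.37 (SE; 95% interval -0.74 to 0.82; by edgeR, adjusted p = 0.983). Psph (chr5:129765558-129787449, minus strand), the phosphatase that releases serine, was at 62.6, 92.9, 94.1, 94.9 and 69.5 CPM in SF_HFD libraries and at 36.1, 123, 122, 84.3 and 37.0 CPM in SF_CD libraries. SF_CD held both the highest and the lowest Psph values, and the log2 fold change was 0.02 ± 0.39 (SE; 95% interval -0.80 to 0.83; by edgeR, adjusted p = 0.992).

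In the mitochondrial arm, none of the 4 enzymes passed the test, and Mthfd1l had the highest fold change of the 9. Shmt2 (chr10:127517123-127522444, minus strand) was at 45.8, 46.8, 39.3, 31.8 and 39.2 CPM in SF_HFD libraries and at 6.76, 62.6, 48.9, 41.3 and 25.3 CPM in SF_CD libraries. The SF_HFD libraries lay within the SF_CD range, and the log2 fold change was 0.07 ± 0.42 (SE; 95% interval -0.82 to 0.97; by edgeR, adjusted p = 0.969). Mthfd2 (chr6:83305691-83325908, minus strand), the dehydrogenase and cyclohydrolase that is high in embryonic and tumor cells, was at 90.2, 96.1, 80.0, 68.7 and 89.7 CPM in SF_HFD libraries and at 106, 117, 133, 104 and 75.9 CPM in SF_CD libraries. In SF_CD, 4 of 5 libraries exceeded every SF_HFD library, and SF_CD library 5 lay among them. The log2 fold change was -0.34 ± 0.30 (SE; 95% interval -0.97 to 0.29; by edgeR, adjusted p = 0.705).

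Mthfd1l (chr10:3973118-4167081, plus strand), the mitochondrial formate-releasing synthetase, was at 12.9, 36.4, 17.0, 20.9 and 29.1 CPM in SF_HFD libraries and at 13.5, 16.7, 14.01, 15.5 and 9.74 CPM in SF_CD libraries. SF_HFD library 1 lay below 4 of the 5 SF_CD libraries, and the other 4 SF_HFD libraries lay above all of them. The log2 fold change was 0.69 ± 0.38 (SE; 95% interval -0.12 to 1.501; by edgeR, adjusted p = 0.509). Aldh1l2 (chr10:83487450-83534140, minus strand) was near the detection limit at 1.27, 2.53, 1.76, 1.21 and 1.26 CPM in SF_HFD libraries and at 13.5, 2.09, 0.420, 1.82 and 0 CPM in SF_CD libraries. The 13.5 CPM rest on 6 counts in SF_CD library 1 (exact 95% Poisson interval 4.96 to 29.4 CPM), and the count of 0 in SF_CD library 5 allows up to 5.84 CPM by the limit of 3 counts and 7.18 CPM by the exact interval. Its log2 fold change was -0.58 ± 0.83 (SE; 95% interval -2.34 to 1.18; by edgeR, adjusted p = 0.843).

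The 2 cytosolic enzymes did not pass either. Shmt1 (chr11:60788104-60811718, minus strand) was at 46.7, 47.5, 24.1, 19.2 and 34.1 CPM in SF_HFD libraries and at 15.8, 38.9, 23.7, 23.5 and 13.6 CPM in SF_CD libraries. SF_HFD libraries 1 and 2 lay above every SF_CD library, and library 4 lay below 3 of them. The log2 fold change was 0.51 ± 0.39 (SE; 95% interval -0.32 to 1.35; by edgeR, adjusted p = 0.655). Mthfd1 (chr12:76255298-76319803, plus strand), which joins formate to tetrahydrofolate, was at 33.9, 39.2, 27.7, 18.9 and 35.4 CPM in SF_HFD libraries and at 2.25, 35.9, 40.1, 36.0 and 44.8 CPM in SF_CD libraries. The 2.25 CPM of SF_CD library 1 rest on 1 count (exact 95% Poisson interval 0.0571 to 12.6 CPM). The log2 fold change was -0.08 ± 0.47 (SE; 95% interval -1.07 to 0.91; by edgeR, adjusted p = 0.969), and without SF_CD library 1 the SF_CD mean was 39.2 ± 4.19 CPM (SD, n = 4).

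The sign of several of these small differences depended on the 3 shallow libraries. In the 4 SF_HFD and 3 SF_CD libraries over 1000000 counts, 0 of 9 members passed an adjusted p of 0.05, where 0.205% of 12653 genes did. Psat1 was then at 142 ± 10.8 CPM in SF_HFD libraries and 199 ± 16.9 CPM in SF_CD libraries (SD, n = 4 and 3), and the log2 fold change was -0.49 ± 0.19 (SE; 95% interval -0.91 to -0.06; by edgeR, adjusted p = 0.251). Mthfd2 was at 83.8 ± 12.0 CPM in SF_HFD libraries and 118 ± 14.2 CPM in SF_CD libraries, and the log2 fold change was -0.49 ± 0.21 (SE; by edgeR, adjusted p = 0.289). Both lay lower in every deep SF_HFD library than in any deep SF_CD library, which makes 2 of 9 members, against 9.48% of all genes. None of the 9 lay higher in the same sense, against 9.47%. Phgdh, Psph, Shmt2 and Mthfd1 had log2 fold changes of -0.29, -0.35, -0.32 and -0.32 in these libraries, Mthfd1l had 0.49, Shmt1 had 0.25 and Aldh1l2 had 0.17, all with edgeR adjusted p of at least 0.484.

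**Figure D2:**
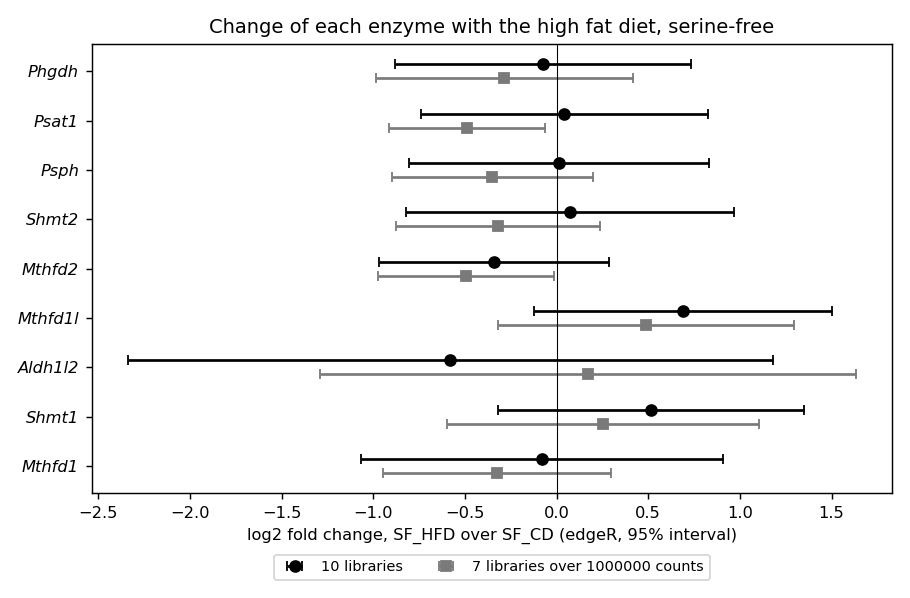
Log2 fold change of each enzyme, SF_HFD over SF_CD (horizontal axis), with its 95% interval, from all 10 libraries (black circles) and from the 7 libraries over 1000000 counts (grey squares). All black intervals cross 0, and the grey intervals of Psat1 and Mthfd2 lie below it, with edgeR adjusted p of 0.251 and 0.289.

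Ratios of enzymes within a library were compared as well, since they need no scaling to library size. The 0.5 added to each count still weighs more where counts are low, as in the shallow libraries. Of 8 log2 ratios tested by an exact two-sided permutation test (smallest possible p 0.00794), 0 passed after Benjamini-Hochberg adjustment over the 8. A lone ratio could not have passed this adjustment even at the smallest possible p, so the count of 0 does not show that the ratios were alike. The ratio of Mthfd2 to Mthfd1l, successive steps of the mitochondrial arm, was 2.81, 1.40, 2.23, 1.71 and 1.61 on the log2 scale in SF_HFD libraries 1 to 5 and 2.87, 2.80, 3.24, 2.75 and 2.84 in SF_CD libraries 1 to 5. Of the SF_HFD libraries, 4 of 5 lay below every SF_CD library, and library 1 lay within the SF_CD range. The means were 1.95 ± 0.57 in SF_HFD and 2.90 ± 0.19 in SF_CD (SD, 5 libraries each), a difference of -0.95 (exact permutation p = 0.0238, adjusted p = 0.190). In the 7 deep libraries the difference was -0.89 (exact permutation p = 0.114, adjusted p = 0.320, smallest possible p 0.0286). The mitochondrial to cytosolic ratio Shmt2/Shmt1 averaged 0.31 ± 0.38 in SF_HFD and 0.46 ± 0.88 in SF_CD, and Psat1/Phgdh averaged 0.15 ± 0.66 in SF_HFD and -0.05 ± 0.25 in SF_CD. The 7 ratios other than Mthfd2/Mthfd1l had exact permutation adjusted p of at least 0.815.

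**Figure D3:**
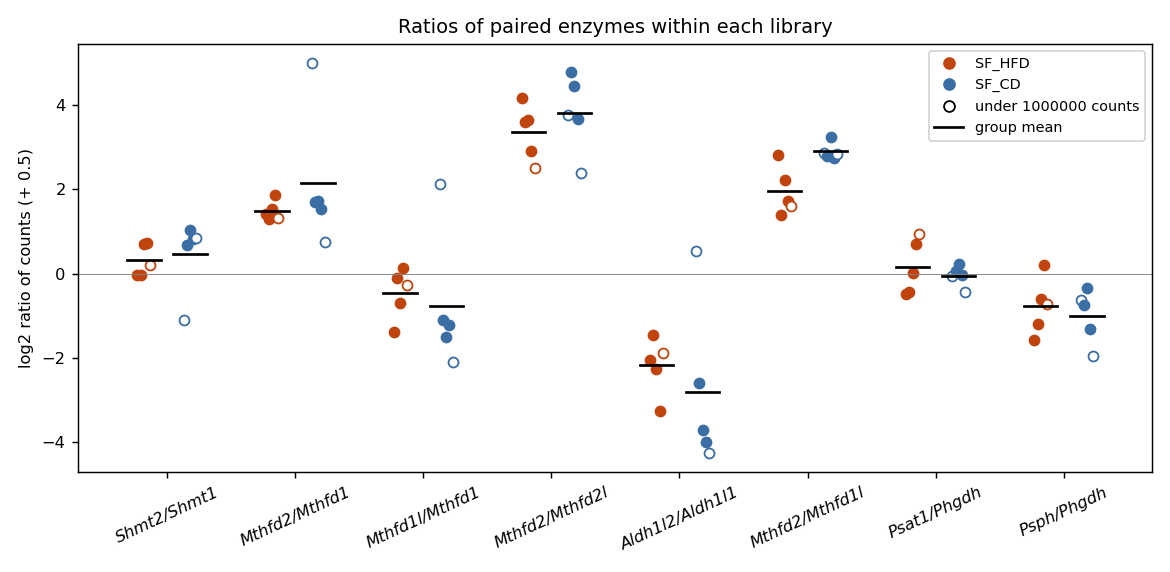
Log2 ratios of counts (vertical axis, 0.5 added to each count) of 8 enzyme pairs within each SF_HFD and SF_CD library, with group means as bars and open circles for libraries under 1000000 counts. Mthfd2/Mthfd1l averages 1.95 in SF_HFD and 2.90 in SF_CD, and SF_CD library 1 stands apart in the ratios to Mthfd1 and in Shmt2/Shmt1.

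Per length, the enzymes of serine synthesis were among the most abundant of the 9 and the folate enzymes of the last steps were the least. Divided by kilobases of annotated exons and averaged over the 10 libraries, Phgdh was at 60.7 ± 21.8 CPM per kilobase (SD, n = 10), Psat1 at 36.4 ± 12.2, Mthfd2 at 27.5 ± 5.59 and Psph at 18.8 ± 7.03. Shmt2 followed at 12.5 ± 4.85 CPM per kilobase, Shmt1 at 7.40 ± 3.17, Mthfd1 at 7.07 ± 2.81, Mthfd1l at 4.19 ± 1.85 and Aldh1l2 at 0.345 ± 0.522. Each of the first 5 exceeded the next in 9 of 10 libraries, Shmt1 exceeded Mthfd1 in 7, Mthfd1 exceeded Mthfd1l in 8 and Mthfd1l exceeded Aldh1l2 in all 10. The mean log2 difference between Shmt1 and Mthfd1, 0.21 ± 1.09 (SD, n = 10), and that between Psat1 and Mthfd2, 0.33 ± 0.61, were smaller than their spread. The same holds for Mthfd1 and Mthfd1l, at 0.58 ± 1.24, whereas Phgdh and Psat1 differed by 0.73 ± 0.48. Shmt2 was above its cytosolic counterpart Shmt1 by 0.70 ± 0.66.

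**Figure D4:**
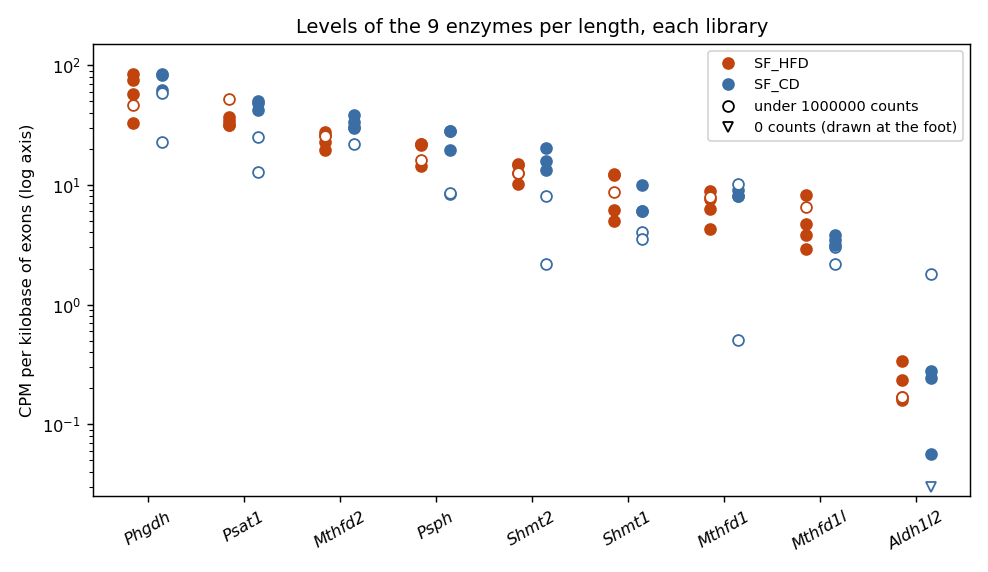
CPM per kilobase of exons (log axis) of the 9 enzymes in order of their mean, in each SF_HFD and SF_CD library, with open symbols for libraries under 1000000 counts and a triangle at the foot for 0 counts. Phgdh averages 60.7 and Aldh1l2 0.345 CPM per kilobase, and Mthfd2 shows the narrowest spread of the 9 over the 10 libraries.

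Mthfd2 varied least across the 10 libraries and Aldh1l2 and Mthfd1 most. The SD of log2 CPM was 0.29 for Mthfd2, at the 2.31 percentile of 2035 genes of similar level, and 1.23 for Mthfd1, at the 87.6 percentile. In the 7 deep libraries the SD of Mthfd2 was 0.32, at the 30.2 percentile, and that of Mthfd1 was 0.38, at the 32.5 percentile. There Psat1 (0.28) and Shmt2 (0.30) varied less than Mthfd2, Shmt1 (0.53) varied more than Mthfd1, and Aldh1l2 (0.66) varied most. SF_CD library 1 lay far from the others for Mthfd1 and Aldh1l2. Against the median of the other 9 libraries, it lay on the log2 scale at -3.83 for Mthfd1, at -2.56 for Shmt2, at 0.23 for Mthfd2 and at 3.15 for Aldh1l2, with a median of -0.69 over all genes. The 3 serine synthesis enzymes lay at -1.45 for Phgdh, -1.53 for Psat1 and -1.36 for Psph there. Among the deviations of 11780 genes in that library, these 3 stood at the 35.9, 34.7 and 37.5 percentiles, Shmt2 at the 20.9, Mthfd1 at the 9.61 and Aldh1l2 at the 98.3 percentile. Its ribosomal RNA and Malat1 shares are those given above, and their part in these values was not tested.

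Across libraries, 29 of the 36 pairs of enzymes had a positive Pearson r of log2 CPM, with a median of 0.37. The share of positive pairs among other genes was not computed, so whether these values are particular to the enzymes is not known. SF_CD library 1 lay below the median of the others for 7258 of 11780 genes, and its part in the signs was not tested on its own. In the 7 deep libraries, which leave out SF_CD library 1 and the other shallow libraries, 27 of the 36 pairs were positive, with a median r of 0.38. After adjustment over the 36 pairs, 2 passed on Pearson's r and 0 on Spearman's rho, by permutation tests with 100000 resamples. Psat1 and Shmt2 had r = 0.91 (permutation p = 0.0026, adjusted p = 0.0468) and rho = 0.60 (permutation p = 0.0726, adjusted p = 0.356). Without SF_CD library 1 and SF_HFD library 5, the farthest from the median of Psat1, r was 0.80. Psph and Shmt2 had r = 0.78 (permutation p = 0.00256, adjusted p = 0.0468) and rho = 0.70 (permutation p = 0.0301, adjusted p = 0.356), and r was 0.43 without SF_CD libraries 1 and 5. In the 7 deep libraries r was 0.65 and 0.38 for these pairs and 0 of 36 pairs passed. For both pairs r was lower without the shallow libraries, and the part of depth in this was not tested. Aldh1l2 and Mthfd1 had the lowest r, -0.77 (permutation adjusted p = 0.0742; rho = -0.38, permutation adjusted p = 0.591; r = -0.62 without SF_CD library 1 and SF_HFD library 4), and 0.01 in the deep libraries.

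**Figure D5:**
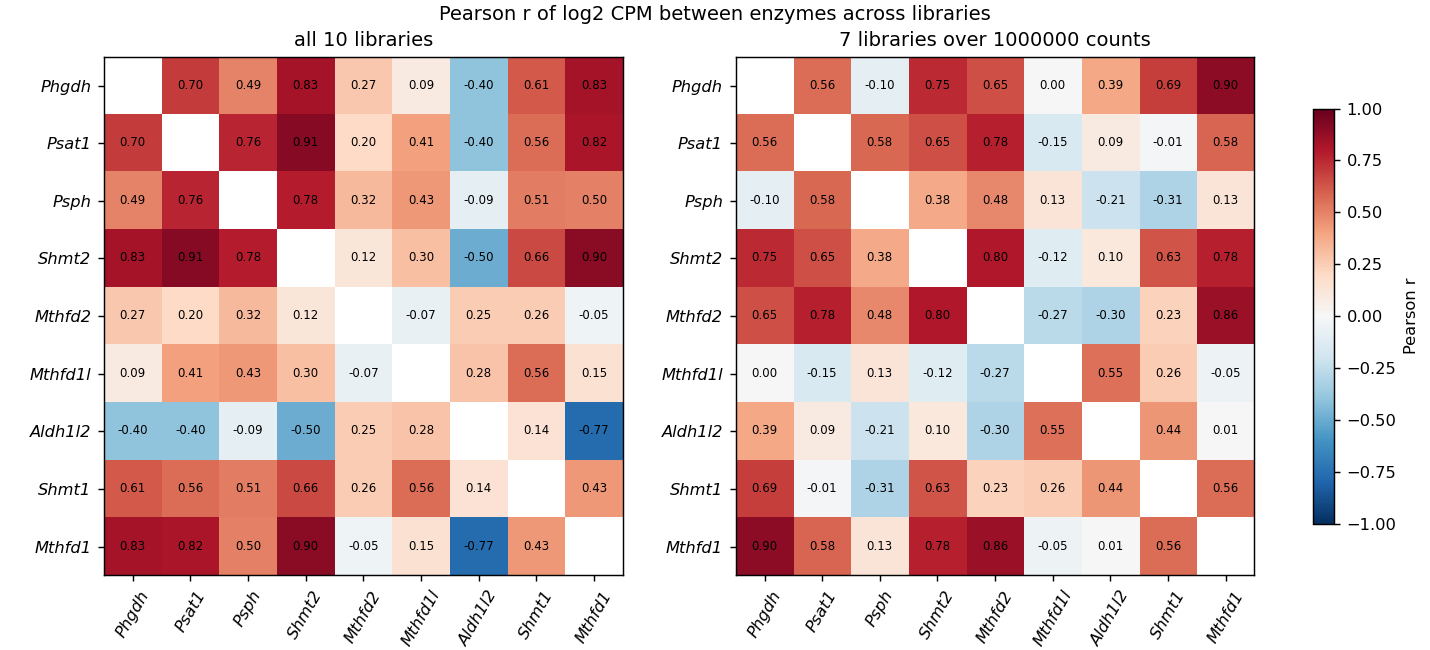
Pearson r of log2 CPM between each pair of enzymes across all 10 libraries (left) and the 7 libraries over 1000000 counts (right), on a colour scale from -1 to 1. Psat1 and Shmt2 reach 0.91 on the left and 0.65 on the right, and Mthfd1 and Aldh1l2 stand at -0.77 and 0.01.

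Of 7283 other genes with a mean of at least 10 CPM, the one closest to each member was found by the mean absolute difference of centred log2 CPM over the 10 libraries. Tubb4b, a tubulin, followed Shmt2 with a mean difference of 0.115, Txnl4a, a spliceosome component, followed Psat1 with 0.119, and Glud1, glutamate dehydrogenase, followed Mthfd1l with 0.135. Clk4, a splicing kinase, was nearest to Mthfd2 at 0.137, Sec11c, a signal peptidase subunit, to Psph at 0.138, and Ahcy, which hydrolyses S-adenosylhomocysteine, to Phgdh at 0.170. Aldh9a1 was nearest to Shmt1 at 0.191, Cip2a to Mthfd1 at 0.222 and, among 7284 genes, Trappc8 to Aldh1l2 at 0.440. None of the members was nearest to another member, and the closest pair among them, Psat1 and Shmt2, differed by 0.309.

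No gene around the pathway passed the edgeR test either. Of 88 genes in 7 lists (folate enzymes and carriers, glycine cleavage and serine breakdown, serine and glycine carriers, the methionine cycle, purine and thymidylate synthesis, the ATF4 response, and regulators of the 9 enzymes), 76 were tested and 0 passed. Over all genes, 0.323% passed the same test. At an unadjusted p under 0.05 there were 10 of the 76, against 11.6% of all genes. DESeq2 called 1 of the 76, Nfe2l2, beside its 2.53% of all genes, and limma-voom called 0, beside its 1.47%. Nfe2l2, the transcription factor of the antioxidant response and a known activator of serine synthesis genes, was at 94.5 ± 8.30 CPM in SF_HFD libraries and 194 ± 46.1 CPM in SF_CD libraries (SD, 5 libraries each), without overlap. Its log2 fold change was -1.03 ± 0.30 (SE; by edgeR, adjusted p = 0.186), and DESeq2 gave -1.12 with an adjusted p of 0.00852.

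By list, the median log2 fold change was 0.19 over 11 folate genes, 0.25 over 7 genes of glycine cleavage and serine breakdown, 0.01 over 9 carriers and 0.06 over 9 genes of the methionine cycle. It was 0.12 over 14 nucleotide synthesis genes, 0.09 over 18 genes of the ATF4 response and -0.11 over 9 regulators, beside 0.02 over all genes tested. Single genes spread around these medians, most widely in glycine cleavage and serine breakdown (-1.65 to 2.15) and least in nucleotide synthesis (-0.43 to 0.70). The abundant members named here did not pass the test. Ggh, which trims the glutamate tail of folates, differed on the log2 scale by 0.24 (by edgeR, adjusted p = 0.843). Gcat, which forms glycine in threonine breakdown, and Dld, a subunit of the glycine cleavage system, had 0.23 and 0.42 (by edgeR, adjusted p = 0.869 and 0.753). Sfxn1, the mitochondrial serine carrier, had -0.41, and Slc38a1, a carrier of neutral amino acids, had -1.35 with SDs of 32.8 CPM around 39.1 CPM in SF_HFD libraries and of 118 CPM around 103 CPM in SF_CD libraries (by edgeR, adjusted p = 0.697 and 0.441). Without SF_CD library 5 the log2 fold change of Slc38a1 was -0.39, and in the 7 deep libraries it was -0.25.

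Mat2a, which makes S-adenosylmethionine, was at 275 ± 115 CPM in SF_HFD libraries and 200 ± 136 CPM in SF_CD libraries (by edgeR, adjusted p = 0.721), and Ahcy had a log2 fold change of 0.06. Paics and Gmps, of purine synthesis, had 0.28 and -0.15 (by edgeR, adjusted p = 0.845 and 0.902). In the ATF4 list, Asns, asparagine synthetase, was at 284 ± 90.6 CPM in SF_HFD libraries and 214 ± 133 CPM in SF_CD libraries, and Nupr1, a stress-induced regulator, was at 1576 ± 612 CPM in SF_HFD libraries and 2050.3 ± 1049 CPM in SF_CD libraries (by edgeR, adjusted p = 0.782 and 0.740). Pkm, the pyruvate kinase whose activity affects the supply of serine precursors, had -0.11 (by edgeR, adjusted p = 0.941). The summed level of 12 proliferation genes was 1085 to 2215 CPM in SF_HFD libraries and 1344 to 2414 CPM in SF_CD libraries. Of the 12, 0 passed the edgeR test, where 0.323% of all genes did. At an unadjusted p under 0.05 there was 1 of the 12, against 11.6% of all genes.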

How the data were processed

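Gene expression of mouse colon tumor libraries was analysed from 1 table of estimated counts per gene, deposited by the authors as whole numbers. Salmon 1.3.0 and the mm10 build were used, per the submitters' processing notes. Annotation and summing of transcripts to genes were not given in the sources used here. Groups follow the labelled diet. Whether libraries of a group are separate animals or cultures is not labelled, so the p-values rest on a spread that may be technical. No 2 columns held identical values. The 8 CD and HFD libraries were not used. Checked there were 8 genes, the epithelial marker Epcam and others that nearly all cells use. Of these genes, 7 were at 0 in all 8 libraries, as were 4 of the 9 enzymes, so that row labels do not name their counts. Rows without a symbol took under 0.03% of the counts.

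The 10 serine-free libraries were tested with edgeR 4.0.16 (robust quasi-likelihood, TMM, filterByExpr) in R 4.3.3, with Benjamini-Hochberg adjustment over 11780 genes and a threshold of 0.05. CPM are TMM-normalised. Log2 CPM used a prior count of 2 and ratios added 0.5 to each count. Standard errors come from the log2 fold change and F statistic. Totals ranged from 499774 to 12841275. Intervals and the 3-count limit cover counting error only. Exon lengths and positions come from GENCODE M21 (mm10), which holds 94.7% of the rows. The test was checked on simulated counts.

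The enzymes and all gene lists were chosen with earlier results of these data known. Named beside the 9 enzymes were, by rule, called members or otherwise the 2 most abundant of each list, the genes of the ratios and the nearest gene of each enzyme; marker genes are given as sums, with the called goblet genes named. Not every gene the rule takes is reported. Alternatives were RLE and upper quartile normalization, other filters, DESeq2 1.42.0, limma-voom (limma 3.58.1), a replicate block, leaving out each library, and leaving out shallow or ribosomal RNA-rich libraries.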

Additional observations from a re-analysis of the deposited data

Results flagged for a closer look

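Among 34 groups of 5 values examined (levels and ratios by diet), 7 held a library whose gap to the nearest other was above 0.71 of the group's range, and chance gives about 1 in 20 groups. SF_CD library 1 gave 5 of the 7. Mthfd1 was at 2.25 CPM there, against 35.9 to 44.8 CPM in the rest of SF_CD, and Aldh1l2 was at 13.5 CPM, against 0 to 2.09 CPM. The log2 ratio Shmt2/Shmt1 was -1.10 there, against 0.69 to 1.04, Mthfd2/Mthfd1 was 4.98, against 0.75 to 1.73, and Mthfd1l/Mthfd1 was 2.12, against -2.10 to -1.10. These rest on 1 count of Mthfd1, 3 of Shmt2 and 6 of Aldh1l2 and of Mthfd1l in 499774 counts. Psat1 was at 222 CPM in SF_HFD library 5, which has 727610 counts, against 133 to 156 CPM in the other SF_HFD libraries. The ratio Mthfd2/Mthfd1l was 3.24 in SF_CD library 3, a deep library, against 2.75 to 2.87 in the other SF_CD libraries.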

How the results depend on the processing

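None of the 9 enzymes passed an adjusted p of 0.05 under any of the 19 alternatives, and Mthfd2 and Mthfd1l kept their sign in all of them. The small log2 fold changes of other genes turned sign under several. With limma-voom and quality weights they were Psat1 -0.30, Psph -0.25, Shmt1 -0.079, Shmt2 -0.34, Aldh1l2 0.29, Gcat -0.10, Ahcy -0.51 and Asns -0.071. Without the 3 libraries under 1000000 counts they were Psat1 -0.49, Psph -0.35, Shmt2 -0.32, Aldh1l2 0.17, Gcat -0.32, Dld -0.11, Sfxn1 0.073, Ahcy -0.22, Paics -0.18 and Asns -0.29. Without the libraries over 10% ribosomal RNA they were Psat1 -0.34, Psph -0.40, Shmt2 -0.33, Aldh1l2 0.14, Gcat -0.15, Dld -0.028, Sfxn1 0.0061, Ahcy -0.31, Paics -0.17 and Asns -0.11. Psph was at -0.020 with RLE normalization and at -0.032 by DESeq2. The cause was not tested. Leaving out 1 library at a time gave ranges of -0.28 to 0.077 for Phgdh, -0.17 to 0.19 for Psat1, -0.17 to 0.21 for Psph, 0.36 to 0.79 for Shmt1, -0.16 to 0.33 for Shmt2, -0.33 to 0.059 for Mthfd1, -0.45 to -0.25 for Mthfd2, 0.45 to 0.85 for Mthfd1l and -1.05 to 0.27 for Aldh1l2. Among genes of the other lists, 1 library turned the sign of Ahcy (-0.28 to 0.27) and Pkm (-0.28 to 0.074). Over all genes, 38 were called, against 78 with no filter, 298 by DESeq2 and 173 by limma-voom, and 16 to 88 with 1 library left out. Deviations of libraries with the same replicate number had correlations of -0.21 to 0.14. Only SF_HFD library 3 was closest to the SF_CD library of its own number. With 5 libraries per group, these values cannot settle whether the numbers pair libraries. With the replicate block 22 genes were called and Mthfd1 was at 0.062.

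The ratio Psat1/Phgdh was -0.13 without the shallow libraries. When 0.1, 0.5 or 1 was added to each count, the Aldh1l2/Aldh1l1 difference was 1.02, 0.63 and 0.49. The Mthfd2/Mthfd1 difference was then -0.74, -0.65 and -0.58, and no ratio passed at any of these settings. With 1 library left out, the ratio differences ranged over -0.53 to 0.0039 for Shmt2/Shmt1, -1.001 to 0.058 for Mthfd2/Mthfd1, -0.039 to 1.01 for Mthfd1l/Mthfd1, -0.80 to -0.20 for Mthfd2/Mthfd2l, 0.26 to 1.46 for Aldh1l2/Aldh1l1, -1.16 to -0.81 for Mthfd2/Mthfd1l, 0.0033 to 0.36 for Psat1/Phgdh and -0.026 to 0.42 for Psph/Phgdh, and none passed. At every setting of the ratios, a lone ratio could not have passed the adjustment even at the smallest possible p. The absence of passing ratios is therefore no measure of how stable they are. Of the correlated pairs, 0 passed with RLE normalization, where r was 0.88 for Psat1 and Shmt2 (permutation adjusted p = 0.0641) and 0.72 for Psph and Shmt2 (permutation adjusted p = 0.0675), and 0 without the shallow libraries, where Mthfd1 and Aldh1l2 had an r of 0.0053. Per kilobase of the longest transcript, Psat1 was at 59.2, Psph at 28.4 and Mthfd2 at 46.1 CPM, in the same order. Depth limits the 3 shallow libraries, where 3 counts equal 3.79 to 6.76 CPM.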

Other observations

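The share of all counts taken by the 9 enzymes together was 0.0517% to 0.0867% in SF_HFD libraries and 0.0270% to 0.0766% in SF_CD libraries.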
